A study of Gallus gallus with 5 samples.

Results

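ELOVL7, ARG2, MTHFS, SLC22A5, NAAA and ADCY7 are 5 metabolic enzymes or enzymes of second messenger synthesis and 1 carrier, grouped because their transcripts were read in wild-type DT40 cells and were low in cells carrying either of the linker histone deletions studied. Every probe set with 1 of these symbols in the platform's probe table was included, which gave 16 probe sets for the 6 genes, out of 38439 probe sets and 13009 named genes on the array. The genes were chosen by their deposited signals on these same 5 arrays, high in wild type and low in both deletions, so their differences from wild type are a description and are given without a test. DT40 is a B cell line from a chicken bursal lymphoma. Total RNA of exponentially growing cells was hybridised to 5 Affymetrix chicken arrays: 2 of wild-type cells (WT), 1 labelled as a deletion of histone H1L (description L-/-) and 2 labelled as a deletion of histone H1R (R-/-). All groups were grown in the same medium with fetal calf and chicken serum, and no other allele or agent is given in the labels. The labels do not say how many clones were used or whether replicates are separate cultures, so the spread between arrays may be technical. By a date code in the descriptions, WT and H1R replicates numbered 1 share one day, and those numbered 2 share another with the H1L array; these are called the first and the second day.

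Linker histones sit where DNA enters and leaves the nucleosome and favour compact chromatin, and vertebrate cells carry several variants of them. The 6 genes act in separate parts of metabolism. ELOVL7 is an elongase of the endoplasmic reticulum that adds carbon to long-chain acyl-CoA, and SLC22A5 (OCTN2) carries carnitine into the cell, which long-chain fatty acids need to enter mitochondria for oxidation. ARG2 is the mitochondrial arginase, which splits arginine into urea and ornithine, a precursor of polyamines and proline. MTHFS returns 5-formyltetrahydrofolate to the active folate pool. NAAA is a lysosomal amidase that hydrolyses N-acylethanolamines such as palmitoylethanolamide. ADCY7 is an adenylyl cyclase of the plasma membrane known from blood cells, and makes cyclic AMP. The probe set sequences and the protein and promoter sequences of these genes were not used here.

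The deposited values are signals on a linear scale with medians from 19.3 to 22.4 per array. A background limit was set per array at the brightest of 23 control probe sets that should find no chicken transcript. It was 29.2 and 21.4 on the WT arrays, 23 on the H1L array, and 18 and 33.6 on the H1R arrays. Actin, read near its 3' end relative to its 5' end as a gauge of RNA integrity, gave ratios of 2.81 (WT) and 3.87 (H1R) on the first day and of 2.01 to 2.25 on the second. Of 13 B cell markers on the array, 12 were above the limit on all 5 arrays, among them PAX5 and BLNK. CD79B, a subunit of the B cell receptor, fell in H1R (-1.45 ± 0.22 SE on the log2(signal + 6) scale, limma adjusted p = 0.02), from 3263.8 and 3744.7 in WT to 1216.1 and 1347.6, with 2021.7 in H1L. CXCR4, a chemokine receptor, rose in H1R (1.79 ± 0.31, limma adjusted p = 0.037), and neither passed in H1L. Of 9 T cell markers, CD4, LCK, ZAP70 and GATA3 were above it on none. The summed T cell signal was 2533 and 4259 in WT, 2240 in H1L, and 1552 and 982 in H1R, most of it from CD3D, which did not pass in H1R (-1.73 ± 0.34, limma adjusted p = 0.063). CD5, the T cell marker that passed, went the other way, with 17.7 and 36.1 in WT, 229.7 in H1L, and 246 and 208.3 in H1R (2.88 ± 0.37 in H1R, limma adjusted p = 0.0098). Of 6 myeloid markers 1 was above the limit on every array, and their summed signal was 141 and 400 in WT against 949 in H1L and 511 and 515 in H1R, where MMP9 was the brightest on the H1L array (793.3) and on both H1R arrays (246.2 and 389.1) and rose in both deletions (limma adjusted p = 0.027 in H1R and 0.038 in H1L). The part of these marker shifts in the values of the 6 genes was not tested. The H1L probe set HIST1H111L read 2295.3 on the array labelled H1L, 1320 and 2034.8 in WT, and 981.8 and 2372 in H1R. The H1R probe set HIST1H111R read 28.9 and 7 in H1R, 36.1 and 39.4 in WT, and 42.2 in H1L. Its difference in H1R did not pass (-1.04 ± 0.51, limma adjusted p = 0.57). The labels do not say where the deletions lie, so neither probe set checks them, and every direction below rests on the labels.

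In their brightest probe set, all 6 genes read between 229 and 582.9 on the WT arrays and between 3.3 and 48.1 on the mutant arrays. No mutant value reached a WT value in any of the 6. On the H1L array 5 of the 6 genes lay at or below the background limit, and on the H1R arrays 3 (replicate 1) and 5 (replicate 2) did. In total RNA of a culture, fewer expressing cells and less transcript per cell cannot be told apart.

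**Figure D1:**
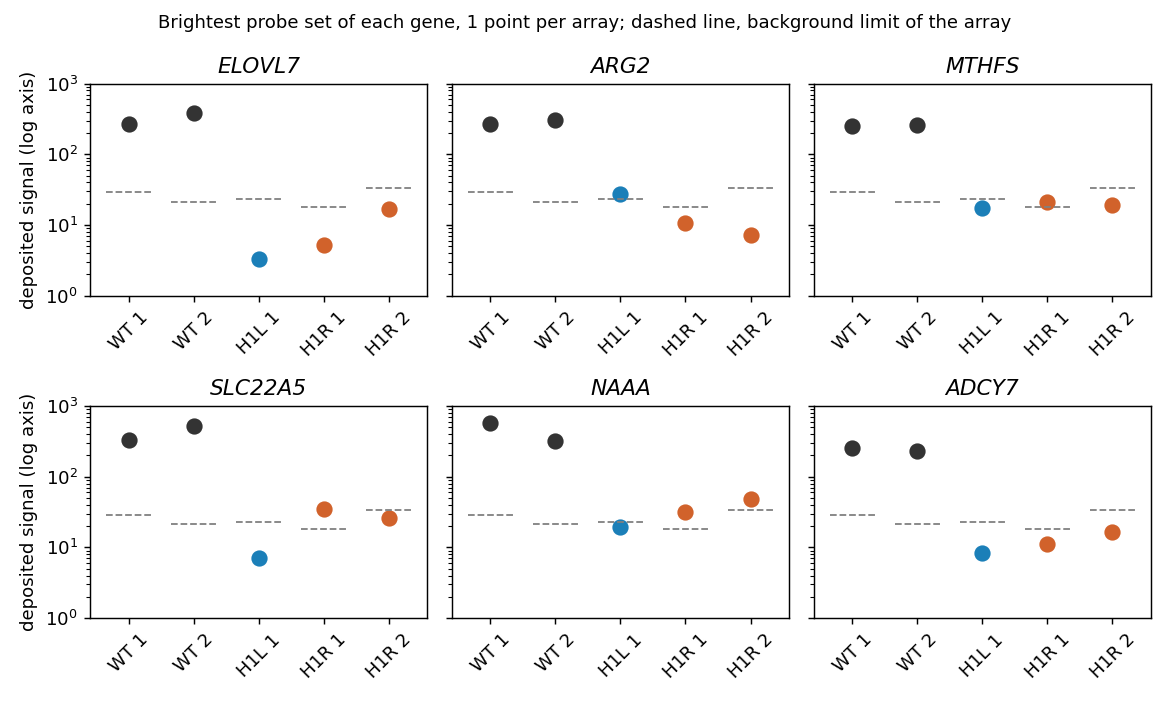
Deposited signal (log axis) of the brightest probe set of each of the 6 genes on the 5 arrays, 1 point per array, with a dashed line at the background limit of that array. WT points lie between 229 and 582.9 and mutant points between 3.3 and 48.1.

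ELOVL7, the elongase, has 1 probe set, with signals of 271.9 and 385.5 in WT, 3.3 in H1L, and 5.3 and 16.8 in H1R. All 3 mutant arrays lay below their limits, so that only a bound on the difference can be given. Against WT it was at least 14.1-fold lower in H1L and at least 13.2-fold lower in H1R.

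SLC22A5, the carnitine carrier, read 332.1 and 522.6 in WT, 7 in H1L, and 35 and 25.9 in H1R in its brightest probe set. H1L was below its limit and at least 18.1-fold lower than WT. In H1R, replicate 1 was above its limit and replicate 2 below it, and H1R was at least 12.1-fold lower than WT. A second probe set of SLC22A5, dimmer in WT (62.8 and 135.8), gave 4.5 in H1L, with 14.8 and 18.6 in the H1R arrays. It was at least 4.02-fold lower in H1L and at least 3.76-fold lower in H1R. The other 2 probe sets stayed at or below the limit on all arrays.

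NAAA, the lysosomal amidase, had the highest WT signal of the 6 genes and the widest gap between the WT arrays, with 582.9 and 316.8. It read 19.3 in H1L, below the limit and at least 18.7-fold lower than WT. It was the 1 gene of the 6 whose brightest probe set stayed above the limit on both H1R arrays, with 32.2 and 48.1, and the geometric means of WT and H1R differed 10.9-fold. A second NAAA probe set did not share this pattern: it read 48.7 and 53.4 in WT, 34.8 in H1L, and 58.2 and 37.7 in H1R, above the limit on all 5 arrays, and WT and H1R overlapped.

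ARG2, the mitochondrial arginase, read 267.9 and 301.6 in WT, 27.2 in H1L, and 10.8 and 7.2 in H1R. It was the 1 gene of the 6 with a higher signal in H1L than on both H1R arrays, and the H1L value lay just above the limit of 23. WT exceeded H1L 10.5-fold, and H1R was at least 11.6-fold lower than WT. The other 2 ARG2 probe sets were at or below the limit on all 5 arrays, between 8.6 and 23.1, and did not separate the groups.

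MTHFS, the folate enzyme, has 1 probe set and had the closest agreement between WT replicates, 247.7 and 258. It read 17.3 in H1L, and 21.3 and 19.1 in H1R. H1L was below the limit and at least 11-fold lower than WT. In H1R, replicate 1 lay slightly above its limit of 18 and replicate 2 below its limit of 33.6, and H1R was at least 9.45-fold lower than WT.

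ADCY7, the adenylyl cyclase, has 5 probe sets. The brightest read 258.7 and 229 in WT, 8.3 in H1L, and 11.2 and 16.7 in H1R, with all mutant arrays below their limits. The difference from WT was at least 10.6-fold in H1L and at least 9.9-fold in H1R. The second, above the limit on 4 arrays, read 62.6 and 68.9 in WT, 38.9 in H1L, and 24 and 26.1 in H1R. In it both WT arrays lay above all mutant arrays, as in 11.2% of all tested probe sets. WT exceeded H1L 1.69-fold, and H1R, with replicate 2 below its limit, was at least 2.31-fold lower than WT. Of the remaining 3 probe sets, 2 were above the limit on 1 array each and 1 on none.

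Of the 16 probe sets of the 6 genes, 12 passed a filter on dim signals, a mean over the 5 arrays above 13.4, and 4, of SLC22A5 and ADCY7, did not. Both WT arrays were above all 3 mutant arrays in 8 of the 12, a description of the pattern for which the genes were chosen, and in 11.2% of all 23053 probe sets that passed the filter. The same order was read in 3 of the 4 dimmer ones, of which 2, both of SLC22A5, were above the limit on no array and have no order there. In all, 5 of the 10 probe sets other than the brightest were above the limit on no array.

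**Figure D2:**
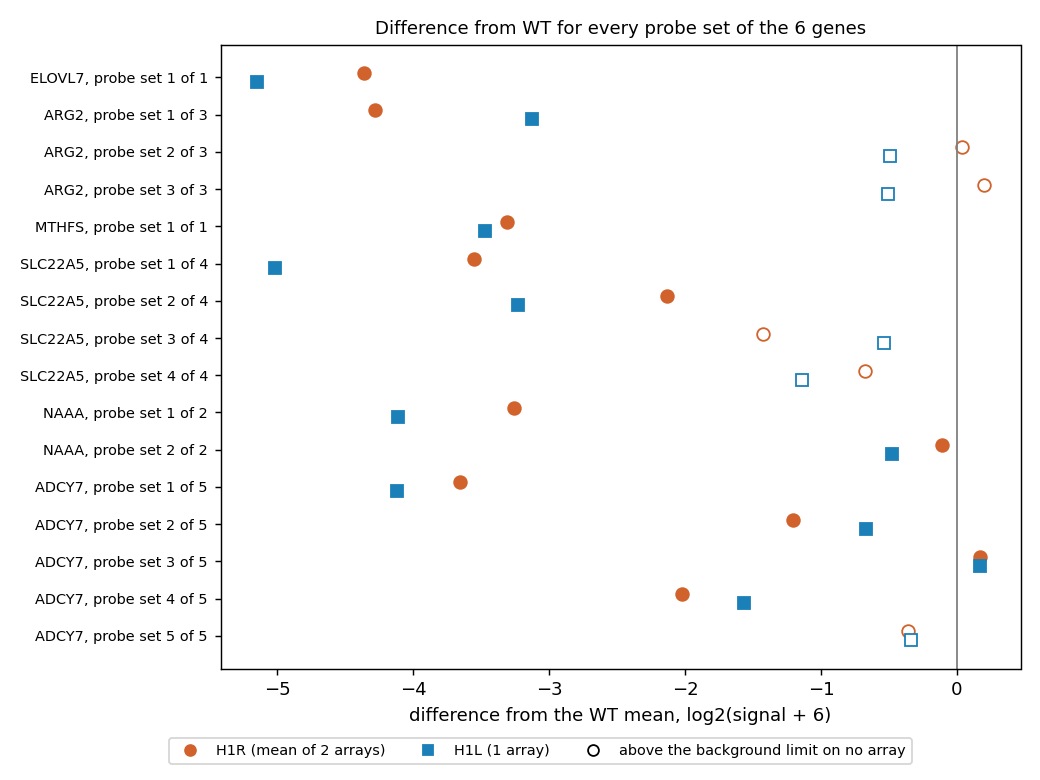
Difference from the WT mean on the log2(signal + 6) scale for each of the 16 probe sets, ordered within a gene by mean signal (circles, mean of 2 H1R arrays; squares, 1 H1L array; open symbols, above the background limit on no array). The brightest probe sets lie between -3.13 and -5.15, and the other probe sets of ARG2, NAAA and ADCY7 lie nearer to 0.

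On the log2(signal + 6) scale, on which differences between dim values are understated, the median difference from WT over the 6 brightest probe sets was -3.60 in H1R and -4.12 in H1L, against 0.09 and -0.05 for all probe sets tested. Within the first day the H1R difference from WT was between -3.04 (SLC22A5) and -4.62 (ELOVL7), and within the second day between -2.58 (NAAA) and -4.54 (ARG2). NAAA moved most between days, from -3.95 to -2.58, and SLC22A5 went the other way, from -3.04 to -4.05. The H1L array, set against WT of its own day, differed by -3.21 (ARG2) to -5.40 (ELOVL7). The genes were chosen on the arrays of both days, so a low value on each day follows from the choice.

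The deletions were also set against each other. H1L read below both H1R arrays for 5 of the 6 genes, against 46% of all tested probe sets. For these 5 the difference of means on the log2(signal + 6) scale was -1.48 for SLC22A5, -0.85 for NAAA, -0.79 for ELOVL7, -0.47 for ADCY7 and -0.17 for MTHFS. The median for all probe sets was -0.15. For ARG2 it was 1.16. Most of these values lie at or below the background limit and have no order there. Of the 12 tested probe sets, 0 were called between H1L and H1R with limma, where 0.00434% of all were. With the day as a block the count was also 0, where 0.134% of all were called. Of the 12, 2 had an unadjusted p under 0.05 without the block, against 5.54% of all. The genes were chosen as low on the arrays of both deletions, so these counts cannot show whether the deletions differ in them.

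The 6 profiles were compared over the 5 arrays by the root mean square difference of log2(signal + 6) values, each centred on its mean. Among the 15 pairs of genes it ran from 0.29 (NAAA with ADCY7) to 0.98 (ARG2 with SLC22A5). MTHFS and ADCY7 differed by 0.31. The 6 genes were chosen as high in WT and low on the mutant arrays, so likeness among them follows from the choice. Most of their mutant values lie at or below the background limit and have no order there. Among 17333 other named probe sets, the profile most like that of ELOVL7 was the one of MME, a membrane peptidase of lymphoid progenitors (0.17), followed by TRBV6-5 (0.43) and SNX7, a sorting nexin (0.48). MME read 157.8 and 279.2 in WT, 0.6 in H1L, and 0.7 and 12 in H1R.

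For SLC22A5 the likest profile was that of TPD52 (0.26), then SNX7 (0.40) and TRBV6-5 (0.51). TPD52 was brighter, with 1353.4 and 1325 in WT, 42.1 in H1L, and 131 and 127.8 in H1R. Its lower value in H1L than in H1R, as in SLC22A5, is part of the likeness by which it was found. For NAAA it was SCIN, an actin-severing protein (0.21), with 164.3 and 70.9 in WT, 0.4 in H1L, and 3.9 and 4.1 in H1R, then TNFRSF1B, a receptor of tumour necrosis factor (0.37), and POPDC3 (0.39). Both SCIN and NAAA read higher in WT replicate 1 than in replicate 2, which is again part of that likeness.

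TMEM47 was nearest to ARG2 (0.26), with 119.8 and 93.5 in WT, 10.2 in H1L, and 1.9 and 1.4 in H1R, followed by PRKCH, a protein kinase C (0.40), and SAMD12 (0.41). MTHFS was most like TMEM108 (0.11), which read 174.1 and 231.7 in WT, 12.1 in H1L, and 15.4 and 14.5 in H1R, then POPDC3 (0.16) and AKAP12, an anchor of protein kinase A (0.22). ADCY7 was most like SAMD12 (0.25), POPDC3 (0.26) and GRIA3, a glutamate receptor subunit (0.27). POPDC3 stood among the 3 likest for NAAA, MTHFS and ADCY7. Between 1 (NAAA) and 13 (ARG2) other probe sets lay nearer to a gene than any other of the 6 did. These values describe 5 arrays. Except for TPD52, the likest profiles named lay below the background limit on all mutant arrays and have no order there. Several of these genes, among them MME, TMEM47, POPDC3 and TPD52, have other tested probe sets, whose profiles are not given here.

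The position of the genes was not used to choose them. By the RefSeq genes of the GRCg7b assembly they lie on 6 chromosomes: ELOVL7 on Z, ARG2 on 5, MTHFS on 10, SLC22A5 on 13, NAAA on 4 and ADCY7 on 11. The 3 nearest protein-coding genes with a tested probe set on each side were examined, 36 in all and at most 6 genes away. Each was read in its brightest tested probe set. Of these, 0 fell and 1 rose in H1R against WT with limma, where 0.586% and 0.581% of all probe sets did (1.17% in either direction). Of the 36, 6 had an unadjusted p under 0.05 in H1R, against 10.2% of all probe sets. In H1L 0 were called in either direction, where 0.2% of all probe sets were. Of the 36, 4 had an unadjusted p under 0.05 in H1L, against 6.89% of all probe sets. With the day as a block 3 were called in H1R, where 3.7% of all probe sets were, and 0 in H1L, where 0.508% were. The median difference of the 36 from WT was 0.07 in H1R and -0.18 in H1L on the log2(signal + 6) scale.

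**Figure D3:**
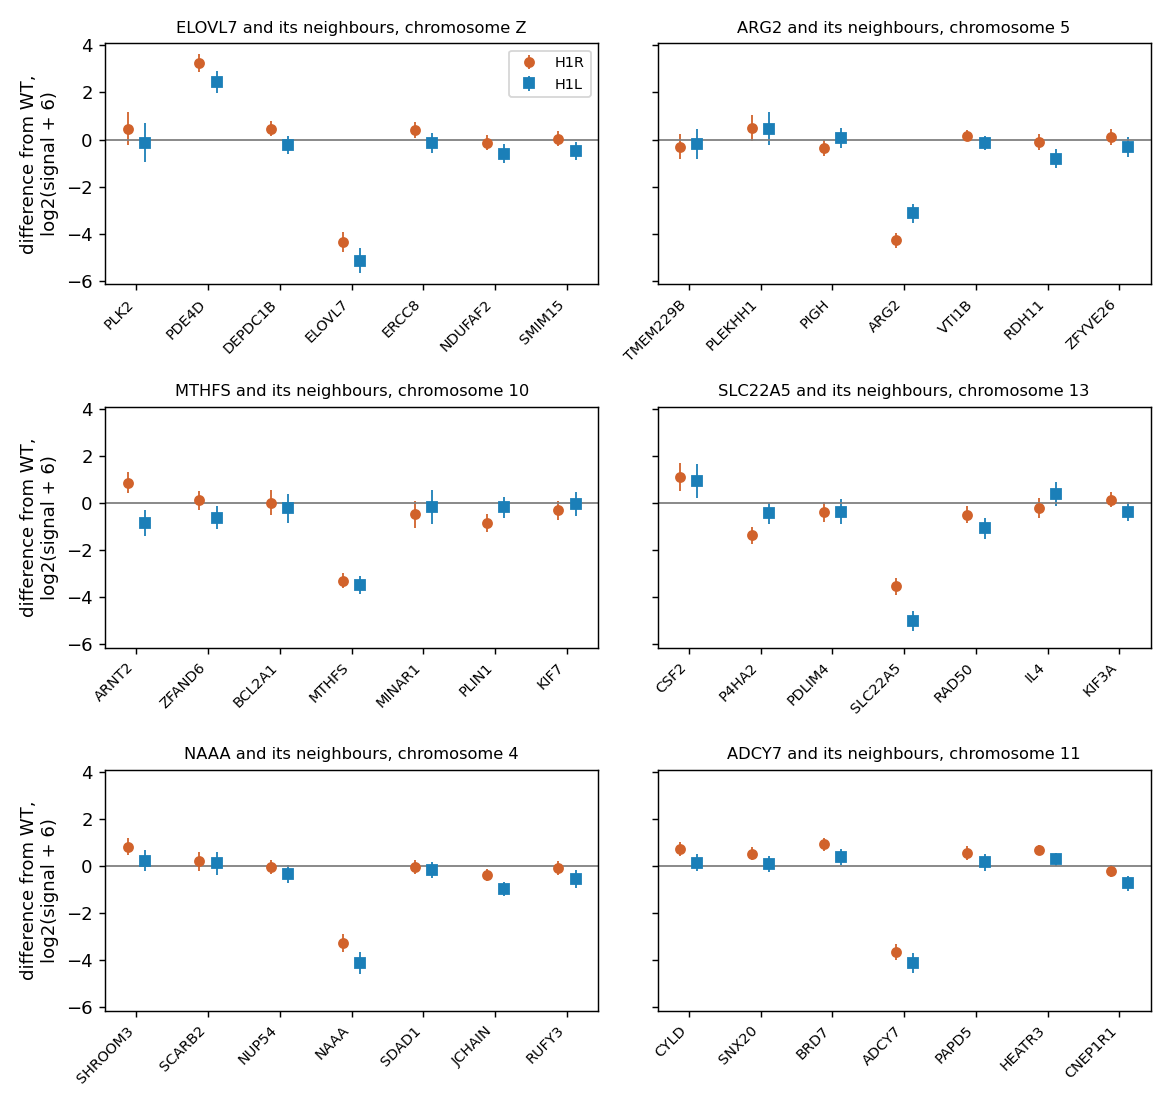
Difference from WT on the log2(signal + 6) scale, with its standard error from the fit, for each of the 6 genes and the 3 nearest tested protein-coding genes on each side, in the order of the annotation (circles, H1R; squares, H1L). The 6 genes lie between -3.13 and -5.15, while their neighbours lie between -1.38 and 3.25, the highest being PDE4D beside ELOVL7. The 6 genes were chosen as low in both deletions, so their low place follows from the choice.

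The neighbour that rose was PDE4D, a cyclic AMP phosphodiesterase and the second gene before ELOVL7. It read 5.3 and 3.8 in WT, 51.1 in H1L, and 105.4 and 84.2 in H1R. The WT arrays were below the limit and all mutant arrays above it. PDE4D was at least 3.77-fold higher in H1R (log2(signal + 6) difference 3.25 ± 0.37 SE, limma adjusted p = 0.0056). In H1L it was at least 2.04-fold higher, which did not pass (2.44 ± 0.45, limma adjusted p = 0.15). Of its 4 tested probe sets, 3 passed in H1R, with 3.16 ± 0.46 (limma adjusted p = 0.018) and 2.75 ± 0.43 (0.024) for the other two, and the fourth did not (1.76 ± 0.56, limma adjusted p = 0.29). Without a filter on dim probe sets the call of the brightest probe set was lost (3.25, limma adjusted p = 0.062). It was also lost without WT replicate 1 (difference 3.35).

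The genes next to ELOVL7 on either side, DEPDC1B and ERCC8, a DNA repair factor, differed from WT by 0.47 ± 0.31 and 0.41 ± 0.33 in H1R and did not pass (limma adjusted p = 0.71 and 0.78). DEPDC1B read 196.1 and 247 in WT, 187.2 in H1L, and 327.2 and 290 in H1R. VTI1B, a SNARE protein and the gene after ARG2, read 954 and 1017.3 in WT, 889.7 in H1L, and 1133.7 and 1067 in H1R. SDAD1, the gene after NAAA, read 798.7 and 1066.7 in WT, 830.3 in H1L, and 798.8 and 1007.6 in H1R. These 4 genes lay above the limit on all 5 arrays, beside a gene of the 6 that was low, and did not pass in either deletion. JCHAIN, farther along after NAAA, read 7395.4 and 4970.7 in WT, 3075.1 in H1L, and 5618.6 and 3917.9 in H1R. The JCHAIN difference was -0.98 ± 0.31 in H1L (limma adjusted p = 0.55). Next to MTHFS, the immediate neighbours BCL2A1 and MINAR1 were above the limit on 1 array each. Beside SLC22A5, P4HA2, a collagen prolyl hydroxylase, had a difference of -1.38 ± 0.37 in H1R (limma adjusted p = 0.19), and RAD50, a DNA break repair protein, had one of -1.09 ± 0.45 in H1L (limma adjusted p = 0.71). SLC22A4, the closest paralogue of SLC22A5, has 3 probe sets, none above the limit on any array, with signals of at most 7.9.

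Around ADCY7, 5 of the 6 neighbours read higher on both H1R arrays than on both WT arrays, an order found in 24.9% of all tested probe sets. BRD7, a bromodomain protein next to ADCY7, read 624.2 and 904.9 in WT, 984 in H1L, and 1350.1 and 1535.5 in H1R (0.93 ± 0.28, limma adjusted p = 0.25, and 0.028 with the day as a block). HEATR3 read 1701.2 and 1967.4 in WT, 2218.4 in H1L, and 2918.1 and 3037.8 in H1R (0.70 ± 0.21, limma adjusted p = 0.25, and 0.045 with the day as a block). CYLD, a deubiquitinase, had 0.71 ± 0.29 (limma adjusted p = 0.46). BRD7, HEATR3 and CYLD have 2, 3 and 6 tested probe sets, and only the brightest of each is given here. The 466 other tested probe sets of chromosome 11 had a median difference of 0.48 in H1R, 0.54 on the first and 0.47 on the second day, and of 0.31 in H1L, against 0.09 and -0.05 for all placed probe sets. For the chromosomes of the other 5 genes the median lay between -0.17 (chromosome 10) and 0.13 (Z) in H1R and between -0.34 (chromosome 10) and -0.09 (Z) in H1L. ADCY7 lies on a chromosome whose median was above that of all placed probe sets, and MTHFS on one whose median was below it. For chromosome 10 the H1R median was -0.28 on the first and -0.03 on the second day. The part of such chromosome-wide shifts in the values of the 6 genes was not tested.

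Genes that act with each of the 6 were followed in 6 lists, of which 130 genes were tested in their brightest probe set. In H1R 2 rose and 0 fell, where 0.581% and 0.586% of all probe sets did, and 19 had an unadjusted p under 0.05, against 10.2% of all. In H1L 0 rose and 0 fell with limma, where 0.0911% and 0.108% of all probe sets did, and 14 had an unadjusted p under 0.05, against 6.89% of all. The median difference from WT over the lists was 0.11 in H1R and -0.03 in H1L on the log2(signal + 6) scale, against 0.09 and -0.05 for all probe sets. With the day as a block 5 of the 130 were called in H1R, where 3.7% of all probe sets were, and 0 in H1L, where 0.508% were. Between H1L and H1R 0 were called, where 0.00434% of all probe sets were. An unadjusted p under 0.05 was found for 5, against 5.54% of all.

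**Figure D4:**
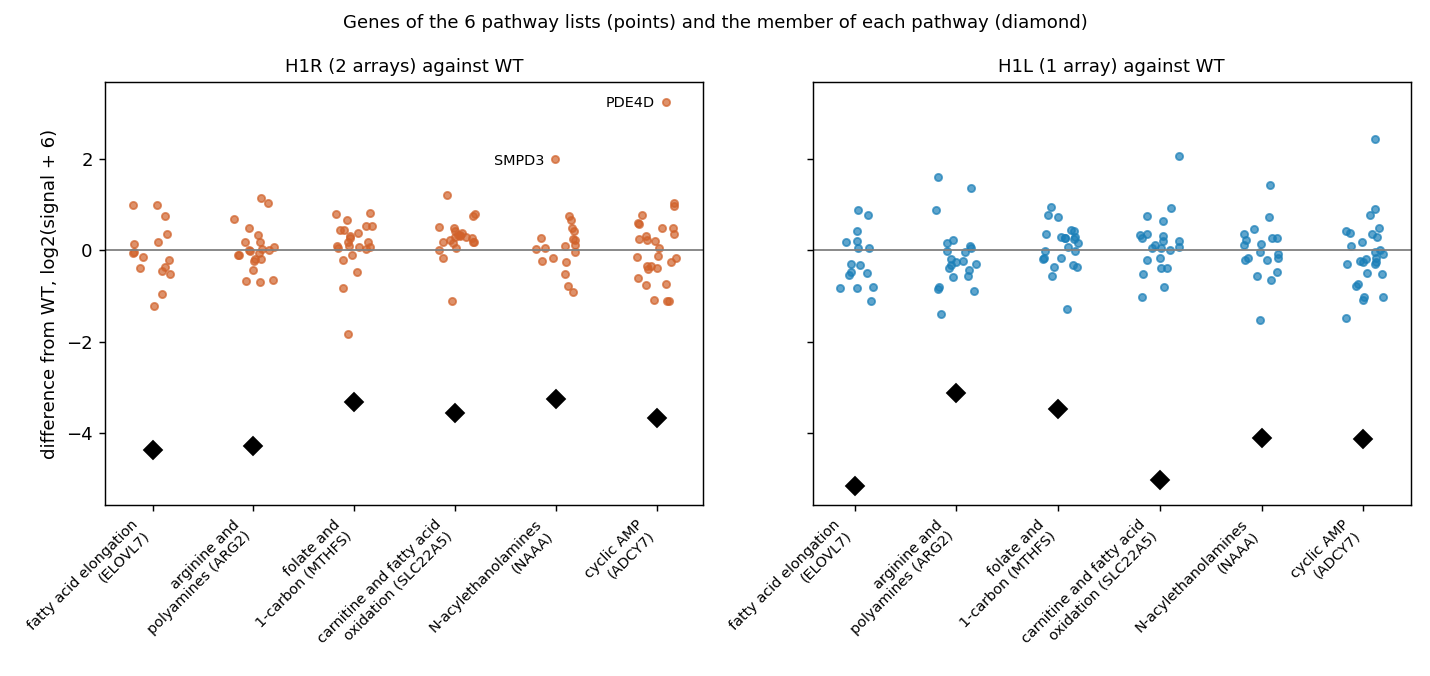
Difference from WT on the log2(signal + 6) scale for the tested genes of the 6 pathway lists (points, 1 per gene, spread sideways for sight) and for the brightest probe set of the member of each pathway (diamonds), in H1R (left) and H1L (right). List genes lie between -1.84 and 3.25 in H1R and between -1.52 and 2.44 in H1L, and all 6 diamonds lie below them. The 6 genes were chosen as low in both deletions, so the place of the diamonds follows from the choice. The named points passed the test.

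Of 16 tested genes of fatty acid elongation, desaturation and activation, 0 were called in either deletion, and 3 had an unadjusted p under 0.05 in each. ELOVL1, ELOVL5 and ELOVL6 were above the limit on all arrays. ELOVL6, which extends palmitate, read 1799.5 and 1440.2 in WT, 906.4 in H1L, and 1630.3 and 1433.1 in H1R, a difference of -0.82 ± 0.30 in H1L (limma adjusted p = 0.64). ELOVL5, an elongase of polyunsaturated acids, read 1262.7 and 964.4 in WT, 776.2 in H1L, and 1154.9 and 1271.2 in H1R. ELOVL1, an elongase of very long saturated acids, read 384.3 and 538.1 in WT, 471.9 in H1L, and 417.8 and 638.2 in H1R. The probe sets of ELOVL2, ELOVL3 and ELOVL4 read at most 21.8, 6.4 and 24. ELOVL7 was above the limit in WT and below it on all mutant arrays, the pattern it was chosen for. Another ELOVL6 probe set, close in signal to the brightest, read 1539 and 1550.8 in WT, 834.9 in H1L, and 1405.6 and 1407.4 in H1R. A dimmer ELOVL6 probe set read 535.5 and 326.8 in WT, 183.9 in H1L, and 232.2 and 289.1 in H1R. A dimmer one of ELOVL5 read 390.2 and 377.2 in WT, 319.8 in H1L, and 246.4 and 365.4 in H1R. None of these ELOVL6 and ELOVL5 probe sets passed in either deletion. In each of them WT lay above all mutant arrays, as in 11.2% of all tested probe sets. This order was absent from the brightest probe sets of ELOVL1, ELOVL5 and ELOVL6. ACSL1, an acyl-CoA synthetase, had a difference of 0.99 ± 0.33 in H1R (limma adjusted p = 0.32).

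Of 22 tested genes of carnitine transport and fatty acid oxidation, 0 were called in either deletion without the block, and 4 (H1R) and 3 (H1L) had an unadjusted p under 0.05. With the day as a block 1 was called in H1R, ECI2, an enoyl-CoA isomerase, at 0.80 (limma adjusted p = 0.046, and 0.28 without the block). CPT1A, which makes the acylcarnitine that enters mitochondria, read 19.5 and 4.8 in WT, 63.6 in H1L, and 27.7 and 36.9 in H1R, a difference of 2.07 ± 0.61 in H1L (limma adjusted p = 0.51). ECHS1, an enoyl-CoA hydratase, read 168.7 and 183.6 in WT, 97.7 in H1L, and 62.5 and 97.4 in H1R (-1.11 ± 0.34 in H1R, limma adjusted p = 0.26). SLC22A16, another carnitine carrier of the family, read 49.1 and 51.5 in WT, 36.6 in H1L, and 51.9 and 49.3 in H1R.

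Of 22 tested genes of arginine, ornithine and polyamine metabolism, 0 were called in either deletion, and 1 had an unadjusted p under 0.05 in each. This was OAZ2, an inhibitor of ornithine decarboxylase, in both deletions, at -0.69 ± 0.26 in H1R (limma adjusted p = 0.41) and -0.80 ± 0.32 in H1L (limma adjusted p = 0.70). It read 1334.4 and 1058.2 in WT, 678.6 in H1L, and 697.2 and 774.2 in H1R. Both WT arrays lay above all mutant arrays, as in 11.2% of all tested probe sets. AGMAT, which is related to the arginases, read 6.1 and 6.3 in WT, 25.6 in H1L, and 16.5 and 26.7 in H1R, above the limit on the H1L array alone.

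Of 23 tested genes of folate and one-carbon metabolism, 0 were called in either deletion, and 3 (H1R) and 0 (H1L) had an unadjusted p under 0.05. AMT, of the glycine cleavage system, read 25.2 and 54.2 in WT, 11.7 in H1L, and 5.7 and 6.5 in H1R, above the limit in WT replicate 2 alone (-1.84 ± 0.53 in H1R, limma adjusted p = 0.23). MAT2B, a regulatory subunit of methionine adenosyltransferase, had 0.80 ± 0.30 in H1R (limma adjusted p = 0.41).

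Of 19 tested genes of N-acylethanolamine, endocannabinoid and ceramide hydrolysis, 1 rose in H1R and 0 were called in H1L, and 2 had an unadjusted p under 0.05 in each. SMPD3, a neutral sphingomyelinase, read 124.7 and 214.9 in WT, 449.1 in H1L, and 628.3 and 708 in H1R. Both H1R arrays read above both WT arrays for SMPD3, as in 24.9% of all tested probe sets. Its difference was 1.99 ± 0.34 in H1R (limma adjusted p = 0.04, and 0.0015 with the day as a block) and 1.42 ± 0.42 in H1L (limma adjusted p = 0.50). A second SMPD3 probe set had 1.43 ± 0.41 in H1R and did not pass (limma adjusted p = 0.23). The call of the brightest SMPD3 probe set was lost without WT replicate 1 (1.61), H1R replicate 1 (2.07) or H1R replicate 2 (1.90). It was also lost without a filter on dim probe sets, with a pseudocount of 1 and with eBayes without a trend. ACER3, an alkaline ceramidase, read 109.1 and 117.2 in WT, 35.4 in H1L, and 43 and 75.6 in H1R, a difference of -1.52 ± 0.44 in H1L (limma adjusted p = 0.47). ASAH1, the acid ceramidase and nearest relative of NAAA, read 438.3 and 444.5 in WT, 294.8 in H1L, and 291.8 and 468 in H1R, and its WT and H1R signals overlapped.

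Of 28 tested genes of cyclic AMP signalling, PDE4D rose in H1R, 0 fell, and 0 were called in H1L, and 6 (H1R) and 5 (H1L) had an unadjusted p under 0.05. With the day as a block 3 were called in H1R, PDE4D, GNAS, the stimulatory G protein subunit (1.04, limma adjusted p = 0.03, and 0.41 without the block), and GNG2 (-1.08, 0.046, and 0.47 without it). Among the other adenylyl cyclases, ADCY9 was above the limit on all arrays in its brighter probe set, with 78.1 and 126.8 in WT, 86 in H1L, and 104.6 and 79.4 in H1R. ADCY6 read 14.1 and 9.6 in WT, 26.8 in H1L, and 27.6 and 29.2 in H1R, above the limit on 2 arrays (0.96 ± 0.43 in H1R, limma adjusted p = 0.51). The highest signal of any probe set on any array was 36.5 for ADCY1, 22.3 for ADCY2, 21.6 for ADCY3 and 28 for ADCY8. ADORA2A, an adenosine receptor that activates adenylyl cyclase, read 43.1 and 48.2 in WT, 12.4 in H1L, and 24.3 and 24.7 in H1R. H1L and H1R replicate 2 were below their limits (difference -1.49 ± 0.45 in H1L, limma adjusted p = 0.52).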

How the data were processed

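The authors made the deposited probe set signal intensity values with GCOS, per the submitters' processing notes. Its version and scaling target: not given in the sources used here. Signals, on a linear scale, were used as deposited. The 96 control probe sets were left out. Of the others, 27168 had 1 gene symbol, 177 several and 11094 none, and 26853 were matched by gene number to RefSeq genes of GRCg7b. Probe sets with a mean signal above 13.4 (the 40th percentile) were tested as log2(signal + 6), 6 being the 25th percentile of all signals. The 3 group means were estimated jointly from the 5 arrays (limma 3.58.1, R 4.3.3, trended eBayes), with Benjamini-Hochberg adjustment over 23053 probe sets. The fit had 2 residual degrees of freedom, and the H1L array, without a replicate, is assumed to vary like the others. The script was tested on simulated data. Values after ± are standard errors.

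WT and H1R arrays of 1 number share a day by the date code, and their deviations from group means correlated at 0.192, so a fit with the day as replicate block was run too. That fit had 1 residual degree of freedom, against 8.32 lent by the spread over all probe sets. A bound sets the bright group's mean log2 signal against the dim group's, each dim array entering at its background limit or its own signal, whichever is higher. This limit was chosen after the data were seen, as were the chromosome medians. The members and the gene lists were chosen with earlier results of these data known. Named were list genes past the threshold and the 2 of each list with the smallest p, relatives of a member, the 3 nearest tested neighbours on each side and the 3 likest profiles. Other genes named (ECI2, GNAS, GNG2 and the neighbours given by value) were picked from these after their values were seen. The number of arrays limits the precision. No 2 arrays shared over 0.859% identical signals.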

Additional observations from a re-analysis of the deposited data

How the results depend on the processing

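The difference from WT of the 6 genes kept its sign in all 96 values recomputed under other scalings, pseudocounts, the block and left-out replicates, between -6.24 and -2.80. Its median was -3.90 (H1R) and -4.56 (H1L) with a pseudocount of 1, and -3.17 and -3.54 with one of 16. The genes were chosen as high in WT and low on the mutant arrays, so the kept sign follows from the choice. The counts of called probe sets, 269 for H1R, 46 for H1L and 1 between H1L and H1R, depended on the fit. They were 854, 117 and 31 with the day as replicate block, 145, 0 and 0 with eBayes without a trend (1589 had an unadjusted p under 0.05 for H1L and 1278 between H1L and H1R in the fit with a trend), and 103 and 4 for H1R and H1L without a filter on dim probe sets. With a pseudocount of 1, 27 were called for H1L, and after quantile normalization 2 between H1L and H1R. Leaving out 1 replicate at a time gave 81 to 328 for H1R, 2 to 126 for H1L and 0 to 32 between them, with the lowest counts without WT replicate 1. The 2 pathway genes called in H1R became 5 with the block, 1 with a pseudocount of 1 or eBayes without a trend, 0 without a filter, and 0 to 2 with a replicate left out. The 1 neighbour called became 3 with the block, 0 without a filter, and 0 to 1 with a replicate left out. Without a filter more probe sets are tested, and a left-out replicate leaves fewer arrays. With a replicate left out some counts fell and others rose. The cause of these shifts was not tested.

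Of the small differences that did not pass, some changed sign. With a replicate left out, the H1R difference ran from -0.45 to 0.21 for ADCY9, from -0.59 to 0.08 for ASAH1, from -0.12 to 0.48 for ELOVL1, from -0.06 to 0.33 for ELOVL5, from -0.23 to 0.09 for ELOVL6 and from -0.03 to 0.04 for SLC22A16. The H1L difference ran from -0.53 to 0.13 for ADCY9, from -0.19 to 0.29 for ELOVL1 and from -0.42 to 0.03 for PLIN1, beside MTHFS. After quantile normalization the H1R difference was -0.02 for ELOVL5 and -0.03 for SLC22A16, which had -0.04 after median scaling. With the day as replicate block the H1L difference of ELOVL1 was -0.22. Signals below the background limit give bounds only, and the H1L values rest on 1 array.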

Other observations

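Chromosome 11, which carries ADCY7, had the highest median difference between H1R and WT (0.47 with ADCY7 included) among 29 chromosomes with at least 100 tested probe sets, followed by chromosome 9 (0.43) and chromosome 20 (0.24). The lowest median was that of chromosome 21 (-0.30). On the H1L array the highest medians were those of chromosome 20 (0.34), chromosome 11 (0.31) and chromosome 25 (0.30), and the lowest was that of chromosome 21 (-0.50). The comparisons share the WT arrays, and DNA copy number was not analysed here.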
